A study of Mus musculus with 14 samples.

Results

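Hif1a, Myc, the glucose transporter genes Slc2a1 and Slc2a3, and the glycolysis genes Hk1, Hk2, Pkm, Ldha, Pgk1 and Gapdh were examined in CUT&RUN peak lists from mouse Th1 cells. They are 10 of the 21887 protein-coding genes on the chromosomes used. The genes were chosen by pathway and from earlier results on these lists, in which Hif1a stood out for H3K27ac, so the H3K27ac values are a description and carry no test. Each gene was given flanks of 10 kb, and the sequence under peaks inside that window was its covered length.

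CUT&RUN releases the DNA around an antibody's target with a tethered nuclease. The antibodies were against H3K27ac, an acetylated histone mark of active promoters and enhancers, CTCF, a DNA-binding protein that organises chromatin loops, and ETS1, a transcription factor of lymphocytes, with IgG as the negative control. Knockout (KO) cells came from mice of the strain named C57BL/6J-Ets1-SE-KO, and wild-type (WT) cells came from C57BL/6J mice. KO is short for this strain name, in which SE stands between Ets1 and KO. It is not used here to say that the Ets1 gene itself was removed. In both genotypes, naive CD4 T cells from spleen were stimulated with anti-CD3 and anti-CD28 and cultured as Th1 cells in IL-12 at 10 ng/mL plus IL-2 at 1 ng/mL over 6 days, so cells of both genotypes were activated. H3K27ac, CTCF and ETS1 each had 2 KO and 2 WT libraries, and IgG had 1 of each, 14 libraries in all. The titles call the 2 KO libraries separate biological replicates and the 2 WT libraries technical replicates of 1 biological replicate, so the WT spread is technical. Libraries are numbered by replicate (KO 1, KO 2, WT 1 and WT 2). The age and sex of the mice are not stated in the labels.

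HIF-1α, the product of Hif1a, is the oxygen-regulated subunit of hypoxia-inducible factor 1 and joins ARNT to activate genes of glucose uptake and glycolysis. MYC, with its partner MAX, drives growth and metabolic genes after T cells are activated. Activated effector T cells take up more glucose and convert much of it to lactate, and both factors have a part in that switch.

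The start regions of 8 of the 10 genes were found in the RefSeq promoter table for GRCm38.p6, the build of the peak coordinates. Myc and Slc2a3 were not matched. The hypoxia response element has the core ACGTG or GCGTG, MYC and MAX bind CACGTG, which itself holds ACGTG, and many ETS factors bind CCGGAA. The 250 bases before the start are shown for Hif1a, at chr12:73907617-73907866 on the plus strand, and for Ldha, Pgk1, Slc2a1 and Hk2. Every stretch shown holds ACGTG. Peaks of all 3 antibodies lay over those of Slc2a1 and Hk2 in all 4 libraries. The same held for a promoter each of Hk1, Pkm and Ldha that is not shown and has no ACGTG in its 250 bases. Ldha is at chr7:46845554-46845803 and Slc2a1 at chr4:119108495-119108744, both on the plus strand, Hk2 at chr6:82774455-82774704 on the minus strand, and Pgk1 at chrX:106186850-106187099 on the plus strand. Capitals mark every match to these 4 words on either strand, so that CACGT and CACGC are ACGTG and GCGTG read on the other strand and TTCCGG is CCGGAA.
Hif1a: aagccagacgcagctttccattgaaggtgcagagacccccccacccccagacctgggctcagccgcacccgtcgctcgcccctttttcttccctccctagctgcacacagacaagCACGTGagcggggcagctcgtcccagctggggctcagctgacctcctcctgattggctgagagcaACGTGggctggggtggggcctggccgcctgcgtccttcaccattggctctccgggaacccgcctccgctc
Ldha: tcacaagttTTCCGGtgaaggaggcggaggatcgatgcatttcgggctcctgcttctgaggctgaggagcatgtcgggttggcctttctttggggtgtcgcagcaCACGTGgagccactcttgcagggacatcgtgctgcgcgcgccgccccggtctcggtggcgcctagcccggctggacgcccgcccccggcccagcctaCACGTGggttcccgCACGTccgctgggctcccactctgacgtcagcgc
Pgk1: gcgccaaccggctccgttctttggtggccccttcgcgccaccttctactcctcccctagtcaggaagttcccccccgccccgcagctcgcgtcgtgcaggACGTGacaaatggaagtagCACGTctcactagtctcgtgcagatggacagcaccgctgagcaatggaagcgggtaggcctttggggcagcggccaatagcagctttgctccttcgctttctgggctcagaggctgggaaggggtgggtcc
Slc2a1: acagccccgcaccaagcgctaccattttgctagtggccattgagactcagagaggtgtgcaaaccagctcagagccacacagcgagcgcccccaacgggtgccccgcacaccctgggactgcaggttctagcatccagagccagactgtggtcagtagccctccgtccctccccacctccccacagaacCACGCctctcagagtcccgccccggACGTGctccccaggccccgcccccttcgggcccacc
Hk2: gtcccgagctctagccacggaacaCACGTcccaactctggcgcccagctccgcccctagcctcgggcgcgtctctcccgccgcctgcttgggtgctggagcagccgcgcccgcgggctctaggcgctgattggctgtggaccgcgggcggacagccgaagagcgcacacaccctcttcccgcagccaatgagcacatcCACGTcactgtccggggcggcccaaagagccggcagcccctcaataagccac
In the window from 250 bases before to 50 after the start, ACGTG occurred in all 8 genes with a promoter in the table, against 23.2% of all 17492 genes there. By promoter, it occurred in 8 of 11, against 20.9% of all 21263. At Gapdh it was found only with the 50 bases after the start included. GC content of the 11 promoters was 49.6% to 69.6%, beside a median of 55.6% over all promoters, and its part in the matches was not tested. GCGTG occurred in 4 of the 8, against 41.4% of all genes. CACGTG occurred in Hif1a and Ldha, against 8.91% of all genes. CCGGAA occurred in Hk1 and Ldha, against 20.9%. Of the promoters that lay under an ETS1 peak in all 4 libraries, 28.3% held ACGTG and 38.2% held CCGGAA. A match is a word in the sequence and not a measured site.

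The lists held 24581 to 28647 H3K27ac peaks, 31368 to 40502 CTCF peaks and 9344 to 40705 ETS1 peaks. No list gives read counts, so depth is unknown. Covered length over the genome was 1.31-fold higher in KO for H3K27ac and 1.31-fold higher in KO for CTCF. Both KO libraries were above both WT libraries at 54.0% of genes with an H3K27ac peak and 56.3% of genes with a CTCF peak. The ETS1 lists were uneven within each genotype, with 40705 and 9344 peaks in KO and 14013 and 23419 in WT. The part of list length in the differences below was not tested. At Ets1, the gene named in the strain label, H3K27ac covered 24.2 and 23.4 kb in KO against 46.6 and 44.1 kb in WT. From there to 250 kb past the gene, on the side of higher coordinates, it covered 0 kb in both KO libraries against 26.3 and 25.0 kb in WT. Of 11 CD4 T cell and Th1 marker genes, 10 had an H3K27ac peak in all 4 libraries. None of 3 NK cell and 4 non-haematopoietic marker genes had one in any library. A peak in all 4 libraries was also found at 1 of 5 B cell, 2 of 5 myeloid, 1 of 2 CD8 T cell and 1 of 3 erythroid marker genes. The CD4 T cell and Th1 genes summed to 125.3 and 112.4 kb in KO against 85.3 and 79.8 kb in WT, and the erythroid genes to 1.64 and 1.53 kb in KO against 0.827 and 0.921 kb in WT. The CD8 T cell genes summed to 1.09 and 0.485 kb in KO against 0.287 and 0.501 kb in WT. The genotypes thus overlapped there, and Cd8a had no peak. The B cell genes summed to 7.49 and 8.58 kb in KO against 5.79 and 4.26 kb in WT, and Cd79b, Ms4a1 and Pax5 had no peak. The myeloid genes summed to 8.22 and 10.7 kb in KO against 7.07 and 5.80 kb in WT, and Lyz2 and Adgre1 had no peak. The part of such cells in the results was not tested.

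Hif1a had the greatest KO-over-WT ratio of H3K27ac covered length of all 13284 genes with a peak. The mark covered 15.4 and 14.8 kb of its window in KO against 3.04 and 1.87 kb in WT. Both KO libraries lay far above both WT libraries. The means were 15.1 ± 0.380 kb in KO and 2.46 ± 0.828 kb in WT (SD over 2 biological replicates in KO and over 2 technical libraries of 1 biological replicate in WT). This was a 6.16-fold difference and a log2 ratio of 2.22 after adding 1 kb to both means, the scale of every log2 ratio below. The log2 ratio was 1.43 with 5 kb added, 1.13 with 50 kb flanks, 1.18 with only peaks of −log10 q of 5 or more, and 0.46 within 2 kb of the start. In a mixture of cells, a longer covered stretch in each cell and the same stretch in more of the cells cannot be told apart.

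The extra H3K27ac at Hif1a lay on both sides of a start that was marked in every library. Peaks of the 4 libraries were merged into regions where they overlapped, and a region was KO-only where both KO libraries and no WT library had a peak. The start region, chr12 from 73907545 to 73913836, had peaks in all 4 libraries, with 5467 and 6292 bp covered in KO against 2511 and 1238 bp in WT. Its best peak ranked high in every list, above 96.2% and 89.9% of the peaks in the KO lists and above 95.7% and 94.6% of those in the WT lists. Around it stood 6 KO-only regions. Before the start lay 73898848 to 73901424 (2577 bp), which runs into the annotated gene, and 73902232 to 73904733 (2502 bp). Just after the start region lay 73914503 to 73918733 (4231 bp), and further into the gene were 3 shorter regions of 194, 250 and 993 bp. In their weaker library these regions ranked above 5.72% to 50.6% of the peaks, so they were weaker calls than the start. The region from 73923488 to 73924098 was found in KO 1 and both WT libraries, so not every site in the gene was longer in KO.

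**Figure D1:**
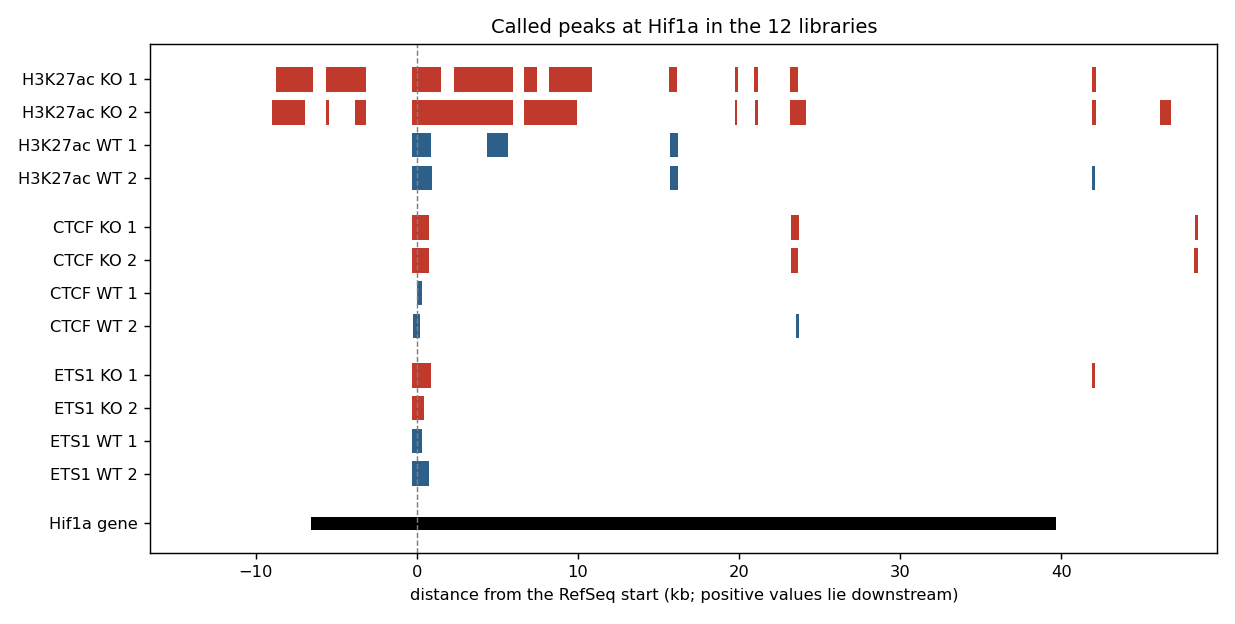
Called peaks at Hif1a in 12 libraries, with the distance from the RefSeq start in kb on the x axis and a line of bars for each library (KO red, WT blue, gene black). H3K27ac bars cover 15.4 and 14.8 kb in KO and 3.04 and 1.87 kb in WT, while ETS1 bars sit at the start in all 4 libraries.

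CTCF at Hif1a was also longer in both KO libraries. It covered 1.74 and 1.72 kb in KO against 0.296 and 0.633 kb in WT, a log2 ratio of 0.90. The ratio was 0.48 at equal list lengths, and no CTCF peak at Hif1a reached a −log10 q of 5 in any library. At the start, the CTCF region was 1060 and 1019 bp in KO against 296 and 467 bp in WT, and its peaks ranked low, above 42.1% and 24.8% of the KO lists and 16.9% and 7.79% of the WT lists. ETS1 covered 1.43 and 0.721 kb in KO against 0.586 and 1.08 kb in WT, and the genotypes overlapped. Apart from a peak in KO 1 alone, the ETS1 peaks at Hif1a formed a single region at the start, present in all 4 libraries, with 1199 and 721 bp in KO and 586 and 1082 bp in WT.

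Myc differed little in H3K27ac. The mark covered 4.08 and 4.06 kb in KO against 3.93 and 3.39 kb in WT, a log2 ratio of 0.12 beside a median of 0.18 over all genes, and of -0.19 once each library was scaled to its total covered length. Both KO libraries were above both WT libraries, yet the step between KO 2 and WT 1 was small. A single region, chr15 from 61984217 to 61988343, held all the H3K27ac in the window and ranked above 75.9% to 77.4% of the peaks in each list. CTCF covered 3.51 and 3.497 kb in KO against 2.72 and 3.10 kb in WT, with a log2 ratio of 0.20 beside a median of 0.21 over all genes, and of -0.09 after scaling. ETS1 ran opposite, at 2.00 and 1.94 kb in KO against 2.68 and 3.45 kb in WT and a log2 ratio of -0.45. The region over the gene was found in all 4 ETS1 libraries, with 1619 and 1940 bp in KO against 2111 and 2778 bp in WT. A second ETS1 region, 61989514 to 61990006, had no peak in either KO library against 164 and 493 bp in WT, and it was the only WT-only ETS1 region among the 10 genes. The ETS1 difference at Myc turned to a log2 ratio of 0.88 when every library was limited to the same number of top-ranked peaks, and to 0.86 with only peaks of −log10 q of 5 or more.

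The 2 glucose transporters differed in how much H3K27ac they carried. Slc2a1 encodes GLUT1, the widely expressed transporter that T cells add to their surface on activation. It had the longest covered length of the 10 genes, with 30.4 and 28.1 kb in KO against 28.5 and 27.6 kb in WT, and the genotypes overlapped. One region, chr4 from 119114809 to 119138475, accounted for most of it. That region was 23667 bp wide and covered 22477 and 22275 bp in KO and 23188 and 22510 bp in WT. The ETS1 antibody separated the genotypes at the same gene, with 1.74 and 0.916 kb in KO against 2.77 and 4.06 kb in WT. The log2 ratio of -0.92 placed Slc2a1 at rank 16421 of 16474 genes from the highest ratio down. The ETS1 peak at the start did not carry this difference, since it was 915 and 916 bp in KO and 904 and 903 bp in WT. The difference lay in a region inside the gene, 119125065 to 119127629, with 444 and 0 bp in KO against 1707 and 2565 bp in WT, under the long H3K27ac domain. With only peaks of −log10 q of 5 or more, the ETS1 log2 ratio at Slc2a1 was 0.40. CTCF at Slc2a1 covered 2.73 and 2.14 kb in KO against 1.55 and 1.71 kb in WT, a log2 ratio of 0.39.

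**Figure D2:**
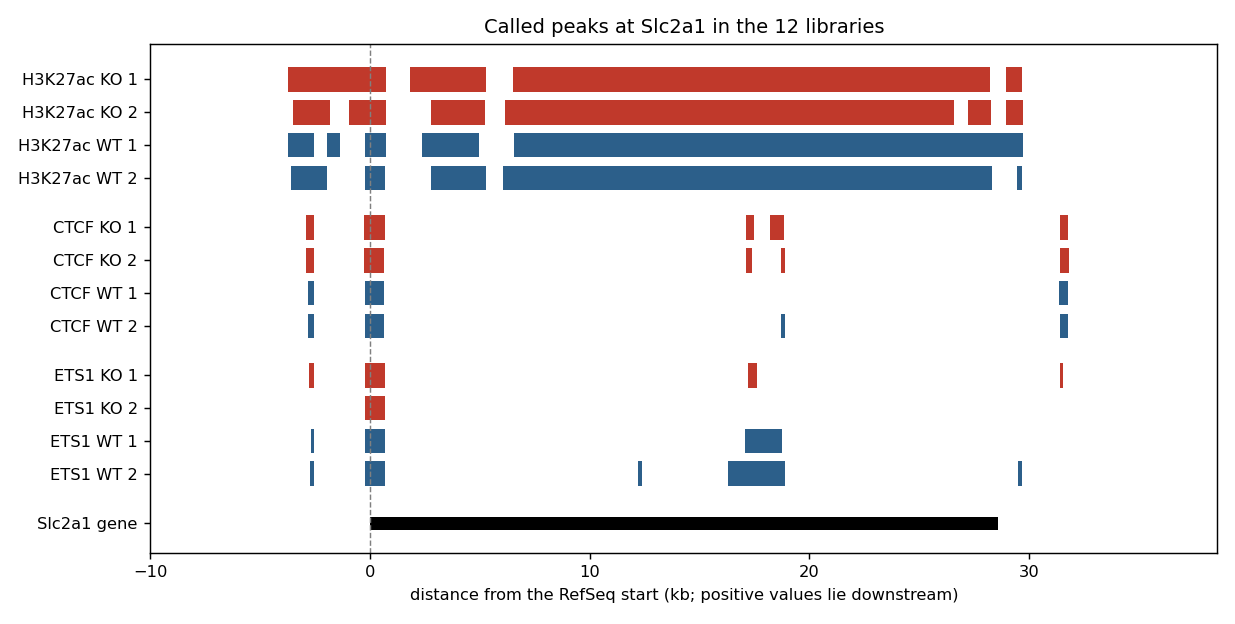
Called peaks at Slc2a1 in 12 libraries, with the distance from the RefSeq start in kb on the x axis and a line of bars for each library (KO red, WT blue, gene black). The long H3K27ac domain begins inside the gene, after its start, and is called in all 4 libraries. The ETS1 region inside the gene has 444 and 0 bp in KO against 1707 and 2565 bp in WT.

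Slc2a3 encodes GLUT3, a high-affinity transporter of neurons and lymphocytes. H3K27ac covered 3.49 and 3.86 kb in KO against 5.18 and 4.98 kb in WT, a log2 ratio of -0.38, and both WT libraries were above both KO libraries. Slc2a3 held all 4 WT-only H3K27ac regions found among the 10 genes. They were 152 to 482 bp long and lay on chromosome 6 between 122728535 and 122763631, while the longest of the 3 shared regions, 122810176 to 122812549, covered 2289 and 2366 bp in KO and 2268 and 2170 bp in WT. With only peaks of −log10 q of 5 or more, the H3K27ac log2 ratio at Slc2a3 was 1.58. CTCF covered 5.65 and 6.00 kb in KO against 5.57 and 5.20 kb in WT, in 10 regions of which 8 were shared, the most among the 10 genes. Its log2 ratio was 0.10, and after scaling each library to its total covered length it was -0.22. ETS1 covered 2.47 and 1.59 kb in KO against 1.23 and 4.61 kb in WT, and the genotypes overlapped.

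The hexokinases, which phosphorylate glucose in the step that commits it to the cell, did not move together. Hk2, the inducible form, had 8.04 and 8.74 kb of H3K27ac in KO against 5.80 and 3.47 kb in WT, a log2 ratio of 0.74 that was 0.45 at equal list lengths and 0.40 after scaling. No H3K27ac peak at Hk2 reached a −log10 q of 5. Its start region was alike in all libraries, 1518 and 1527 bp in KO and 1525 and 1457 bp in WT, and the difference lay in regions along the gene body. Hk1, the constitutive form, had 9.16 and 8.84 kb in KO against 9.38 and 10.1 kb in WT, a log2 ratio of -0.10 that was 0.12 with only peaks of −log10 q of 5 or more. CTCF at Hk1 covered 3.25 and 3.18 kb in KO against 2.13 and 2.49 kb in WT, and at Hk2 3.98 and 3.51 kb in KO against 3.27 and 3.65 kb in WT, where the genotypes overlapped. ETS1 overlapped between genotypes at both, with 3.74 and 1.15 kb in KO against 2.79 and 4.44 kb in WT at Hk1, and 3.02 and 2.25 kb in KO against 2.02 and 3.04 kb in WT at Hk2. The Hk1 window also holds Tacr2 and Hkdc1, so peaks there need not belong to Hk1.

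Pkm encodes pyruvate kinase, which makes pyruvate and ATP in the last step of glycolysis. H3K27ac covered 10.8 and 9.16 kb of its window in KO against 5.38 and 6.04 kb in WT, a log2 ratio of 0.71. The difference lay in regions that were shared, such as chr9 from 59660470 to 59664003, with 3534 and 1934 bp in KO against 1328 and 1505 bp in WT. The log2 ratio at Pkm was above 0 under all 13 other settings tried, between 0.32 and 0.82. CTCF at Pkm covered 3.29 and 2.19 kb in KO against 1.83 and 1.91 kb in WT. ETS1 at Pkm covered 2.34 and 1.52 kb in KO against 1.82 and 1.72 kb in WT, and the genotypes overlapped. Parp6 and Gramd2 lie in the same window.

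Gapdh encodes the dehydrogenase that makes NADH in the middle of the pathway. H3K27ac covered 7.94 and 5.62 kb in KO against 4.61 and 4.67 kb in WT, a log2 ratio of 0.46. In the gene body alone the ratio was 0.31, after scaling 0.13, and no peak there reached a −log10 q of 5. The flank region from 125158871 to 125161698 covered 2351 and 1770 bp in KO against 885 and 1329 bp in WT. CTCF covered 1.65 and 2.47 kb in KO against 0.209 and 0.165 kb in WT. Its log2 ratio of 1.37 ranked 11 of 16073 genes, the highest of the 10 genes for CTCF. At the start, chr6 from 125164634 to 125166492, the CTCF peak was 1132 and 1859 bp in KO against 0 and 165 bp in WT, and it ranked low, above 22.1% and 26.96% of the KO lists. With only peaks of −log10 q of 5 or more, Gapdh had no CTCF peak in any library. ETS1 covered 4.75 and 0.907 kb in KO against 2.22 and 4.04 kb in WT, so the KO libraries were the highest and the lowest of the 4. Iffo1 and Ncapd2 lie in the same window.

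Ldha encodes the subunit of lactate dehydrogenase that favours making lactate. H3K27ac covered 6.38 and 7.67 kb in KO against 6.07 and 5.22 kb in WT, a log2 ratio of 0.27, which became -0.07 after scaling to library totals and 1.97 with only peaks of −log10 q of 5 or more. CTCF covered 1.75 and 1.86 kb in KO against 0.347 and 0.907 kb in WT, a log2 ratio of 0.79. Most of that was the region over the starts, chr7 from 46845693 to 46847230, with 1538 and 1494 bp in KO against 169 and 636 bp in WT. ETS1 covered 1.73 and 1.86 kb in KO against 2.07 and 2.25 kb in WT, a log2 ratio of -0.18 that was 0.02 after scaling and 0.16 with only peaks of −log10 q of 5 or more. The window also takes in part of Ldhc, a lactate dehydrogenase gene known from testis.

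Pgk1 encodes phosphoglycerate kinase, which makes the pathway's earlier ATP, and it had the shortest H3K27ac coverage of the 10 genes. The mark covered 1.61 and 1.04 kb in KO against 1.76 and 0.477 kb in WT. The genotypes overlapped at Pgk1 for all 3 antibodies. CTCF covered 0.671 and 0.430 kb in KO against 0.413 and 0.523 kb in WT, and ETS1 covered 0.574 and 1.501 kb in KO against 1.23 and 1.51 kb in WT. Both of these formed a single region at the start. Taf9b lies in the same window.

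**Figure D3:**
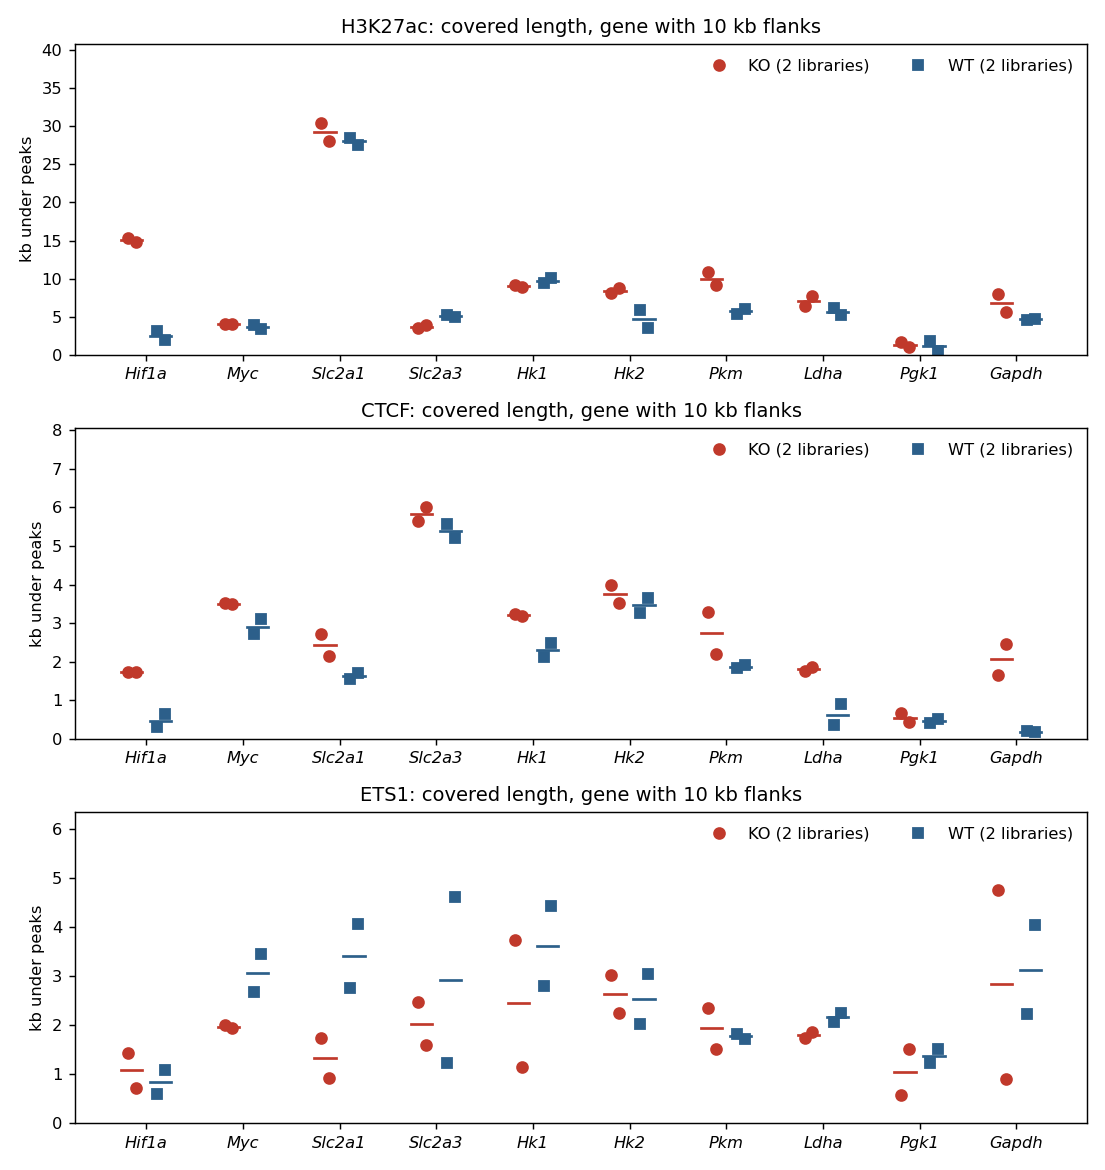
Covered length in kb (y axis) of each of the 10 genes with 10 kb flanks, for H3K27ac, CTCF and ETS1 from top to bottom, with KO circles left of WT squares, a symbol for each library and a bar for the mean. Hif1a has 15.4 and 14.8 kb of H3K27ac in KO against 3.04 and 1.87 kb in WT, and the ETS1 libraries spread widely within both genotypes.

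For H3K27ac, both KO libraries were above both WT libraries at 6 of the 10 genes, Hif1a, Myc, Hk2, Pkm, Ldha and Gapdh, beside 54.0% of all 13284 genes with a peak. The reverse held at 2, Slc2a3 and Hk1, beside 6.37% of all genes. The median log2 ratio of the 10 was 0.20, and that of all genes was 0.18. Summed over the 10 genes, the mark covered 97.3 and 92.0 kb in KO against 73.7 and 67.8 kb in WT, 1.34-fold higher in KO beside 1.31-fold over the genome. Without Hif1a the sum over the 9 other genes was 1.16-fold higher in KO. Slc2a1 gave the largest part of that sum, with 30.4 and 28.1 kb in KO against 28.5 and 27.6 kb in WT. After each library was scaled to its total covered length, KO was above WT at 3 genes and WT above KO at 4, beside 20.8% and 31.4% of all genes, and the median over all genes was -0.03. These counts were known when the genes were chosen, and nothing is read from them.

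For CTCF, both KO libraries were above both WT libraries at 8 genes, all but Hk2 and Pgk1, beside 56.3% of all 16073 genes with a peak, and the reverse held at 0 genes, beside 3.02%. The median log2 ratio was 0.37 over the 10 and 0.21 over all genes. The sums were 28.2 and 26.999 kb in KO against 18.3 and 20.3 kb in WT, 1.43-fold higher in KO beside 1.31-fold over the genome. After scaling to library totals, KO was above WT at 3 genes and WT above KO at 2, beside 24.8% and 21.9% of all genes. Since both WT libraries come from 1 biological replicate, no p-value for the genotypes is given, and these counts compare libraries.

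For ETS1, both KO libraries were above both WT libraries at 0 genes, beside 3.86% of all 16474 genes with a peak, and both WT libraries were above at 3, Myc, Slc2a1 and Ldha, beside 7.47%. At the other 7 genes the libraries of the genotypes overlapped. The median log2 ratio was -0.20 over the 10 genes and 0.04 over all genes. The sums were 23.8 and 14.3 kb in KO against 19.4 and 30.2 kb in WT, so the genotypes overlapped, and the spread within each genotype was as large as the step between them. With only peaks of −log10 q of 5 or more, the log2 ratio of the sums was 0.27, where it was -0.38 with all peaks. The counts changed with single libraries. Without KO 1 or WT 1, WT was above KO at 6 or 7 genes, and without KO 2 or WT 2, KO was above WT at 3. Fewer libraries must then agree, and no share over all genes is given at these settings. These counts are therefore not set against the shares above.

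**Figure D4:**
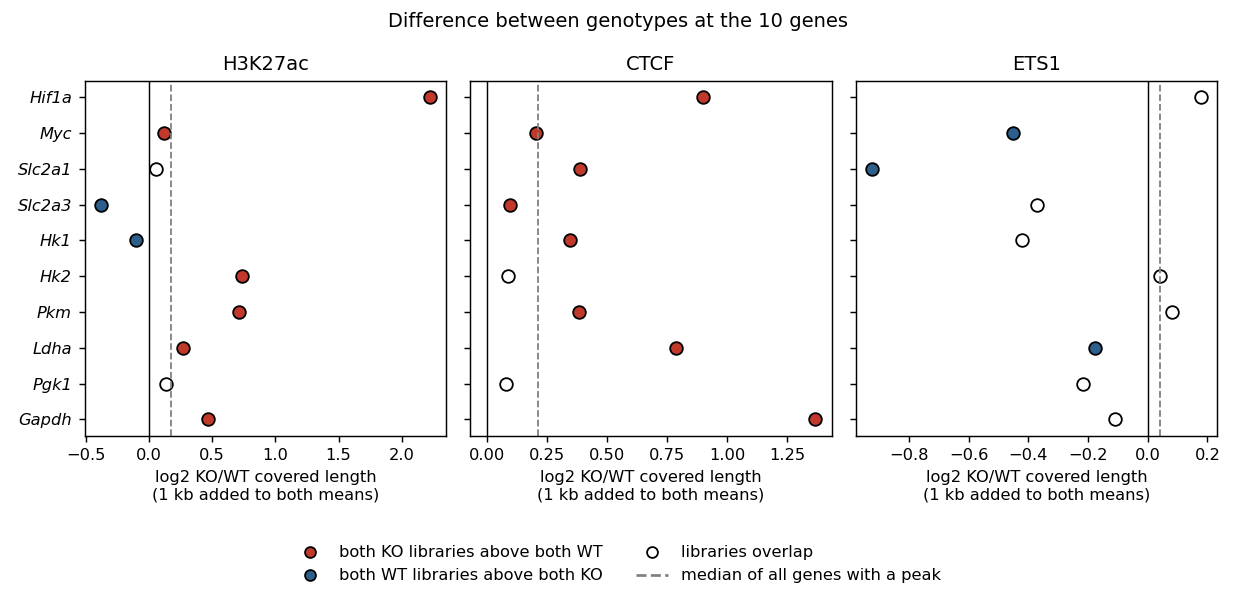
Log2 ratio of covered length, KO over WT with 1 kb added to both means (x axis), for each gene and antibody, with filled points where the libraries of the genotypes do not overlap (red, KO above; blue, WT above), open points where they do, and a dashed line at the median of all genes with a peak. Hif1a at 2.22 stands far from the rest for H3K27ac, and Slc2a1 at -0.92 is the lowest for ETS1.

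Of 77 H3K27ac regions at the 10 genes, 9 were KO-only, beside 7.10% of all regions, and 6 of the 9 were at Hif1a, the others at Hk1, Hk2 and Pgk1. WT-only regions numbered 4, beside 2.70% of all, and shared regions 27, beside 44.0%. Of 49 CTCF regions, 5 were KO-only, at Hif1a, Slc2a1, Hk2, Pkm and Gapdh, beside 8.61% of all, 0 were WT-only, beside 0.580%, and 28 were shared, beside 53.0%. Of 55 ETS1 regions, 0 were KO-only, beside 0.518%, 1 was WT-only, beside 1.12%, and 11 were shared, beside 11.9%. Shared regions had a median width of 2374 bp for H3K27ac and 1814 bp for ETS1, and the KO-only H3K27ac regions had a median of 953 bp. A wider merged region can hold peaks of more libraries. No widths over all regions are set beside these, so nothing is read from them. With a library left out fewer lists must agree, and the KO-only and WT-only H3K27ac regions then numbered up to 18 (without KO 1) and up to 11 (without WT 1). For ETS1 they numbered up to 17 (without KO 2) and up to 10 (without WT 1).

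Each of the 10 genes had peaks of all 3 antibodies near a start or gene end, though not in every library. Within 2 kb of a start, or of a gene end for Myc and Slc2a3, H3K27ac had a peak in all 4 libraries at each of the 10 genes. CTCF had one in all 4 libraries at 9 genes, with Gapdh lacking WT 1, and ETS1 at 9 genes, with Slc2a3 lacking KO 2. Of the 8 genes with a start in the table, 7 had a peak of every antibody in all 12 libraries, beside 24% of the 17492 genes in the table. For single antibodies, the shares of all genes with a peak at the start in all 4 libraries were 43.1% for H3K27ac, 39.4% for CTCF and 31.4% for ETS1. The best start peaks ranked above 2.67% (Slc2a3, WT 1) to 99.9% (Hk1, KO 1) of their lists for ETS1. For CTCF they ranked above 5.33% (Gapdh, WT 2) to 98.3% (Hk1, KO 1). No peak of any antibody lay over the 250 bases before 1 of the 2 Hk1 starts, at 62379908. The ETS1 start peak of Hk2 ranked above 97.7% and 92.3% of the KO lists and 92.1% and 98.8% of the WT lists, and that of Slc2a1 above 98.7% and 91.2% in KO and 87.7% and 96.4% in WT. The 11 ETS1 regions shared by all 4 libraries all overlapped a shared H3K27ac region, beside 92.0% of shared ETS1 regions over the genome. For CTCF, 15 of 28 shared regions did, beside 32.03% over the genome.

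**Figure D5:**
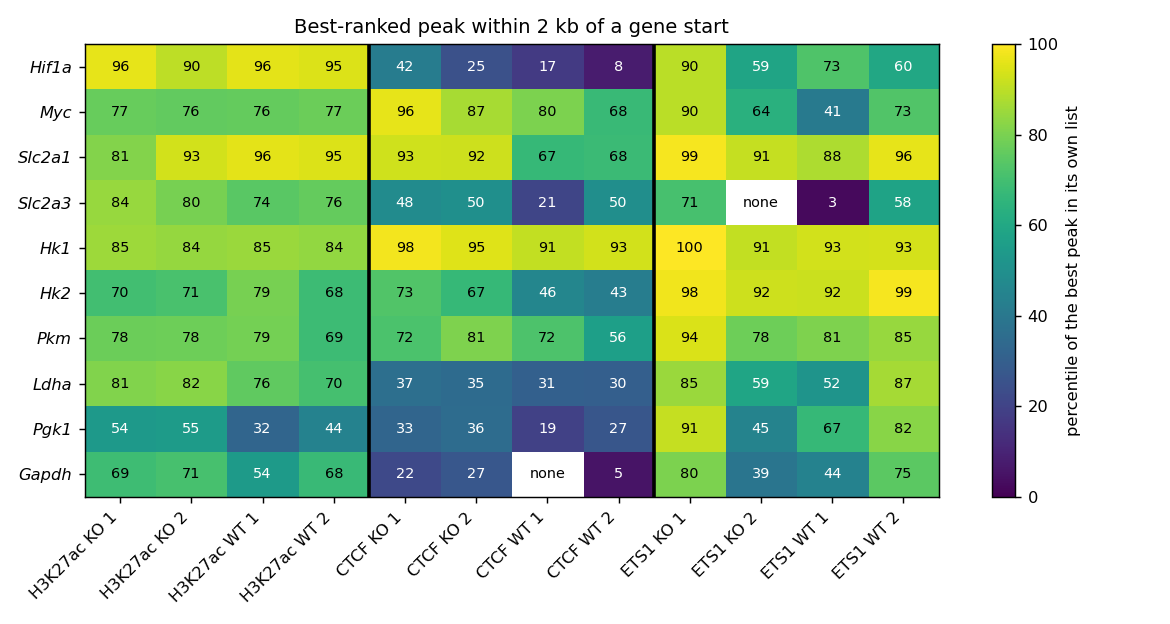
Percentile of the best-ranked peak within 2 kb of a gene start, by the authors' −log10 p within its own list, for each gene (down) and library (across), with the value printed in each cell and a white cell where no peak was called. Hk1, Hk2 and Slc2a1 have high ETS1 percentiles in all 4 libraries, and Gapdh and Slc2a3 each lack a start peak in 1 library.

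The other genes of these pathways were read from lists of 15 further glycolysis genes, 13 isozymes and transporters of other tissues, 14 HIF pathway genes and 11 genes of the MYC network. Among the further glycolysis genes with an H3K27ac peak, KO was above WT at 9 of 14 and WT above KO at 1, beside 54.0% and 6.37% of all genes, and the list's median log2 ratio was 0.19 beside 0.18 for all genes. Pfkp, the platelet-type phosphofructokinase, had 19.6 and 19.998 kb in KO against 10.6 and 11.3 kb in WT. Tpi1, triose phosphate isomerase, had 3.31 and 2.52 kb in KO against 0.545 and 1.70 kb in WT. Pfkfb4, which makes the phosphofructokinase activator fructose 2,6-bisphosphate, was the only one with WT above, at 2.96 and 2.53 kb in KO against 4.76 and 4.43 kb in WT. Slc16a3, the lactate exporter MCT4, was nearly level at 14.0 and 14.0 kb in KO against 13.5 and 13.1 kb in WT. For CTCF, KO was above WT at 13 of 15 and WT above KO at 0, beside 56.3% and 3.02% of all genes (list median 0.31, all genes 0.21), with Tpi1 and the phosphoglycerate mutase Pgam1 at log2 ratios of 0.67 and 0.64, and Pfkm and Eno1 at 0.25 and 0.21. For ETS1, the genotypes overlapped at all 15 (list median -0.09, all genes 0.04). After scaling to library totals, an alternative chosen after seeing the data, KO was above WT at 3 and WT above KO at 7 of the 14 genes for H3K27ac, beside 20.8% and 31.4% of all genes. For CTCF the counts were 5 and 0 of the 15, beside 24.8% and 21.9%. For ETS1 they were 2, Pfkm and Tpi1, and 0 of the 15, beside 8.25% and 10.7%. The ratio was then -0.30 at Slc16a3 for H3K27ac and -0.08 at Eno1 for CTCF.

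Of the isozymes of other tissues, 9 of 13 had an H3K27ac peak, KO was above WT at 4 and WT above KO at 1, beside 54.0% and 6.37% of all genes, and the list median was 0.16 beside 0.18. Ldhc, whose window overlaps that of Ldha, had a log2 ratio of 0.91, Pgam2 0.62 and Eno2 0.32, and Gapdhs, the sperm isozyme, -0.45. The mark covered 1.52 and 1.77 kb at Ldhc in KO against 0.807 and 0 kb in WT. A region in the Ldha gene body, chr7 from 46851229 to 46853032, had nearly the same lengths, 1540 and 1804 bp in KO against 807 and 0 bp in WT. The Ldhc value therefore need not be separate from that of Ldha. For CTCF, KO was above WT at 5 of 10 and WT above KO at 0, beside 56.3% and 3.02% of all genes (list median 0.27, all genes 0.21), with Eno2 and Eno3 at 0.78 and Hkdc1 and Hk3 at 0.27 and 0.16. For ETS1, the genotypes overlapped at all 12 with a peak (list median 0.20). After scaling, KO was above WT at 3 and WT above KO at 3 for H3K27ac, beside 20.8% and 31.4% of all genes, and at 2 and 1 for CTCF, beside 24.8% and 21.9%. For ETS1 the counts were 1, at Hk3, and 0, beside 8.25% and 10.7%.

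In the HIF pathway, KO was above WT for H3K27ac at 7 of 12 genes with a peak and WT above KO at 1, near the 54.0% and 6.37% of all genes, with a list median of 0.22 beside 0.18. Egln2, a prolyl hydroxylase that marks HIF-1α for destruction, had 2.46 and 2.89 kb in KO against 0.923 and 2.03 kb in WT. Vhl, the ubiquitin ligase subunit that then binds it, had 2.95 and 3.17 kb in KO against 1.70 and 1.91 kb in WT. Hif1an, the asparaginyl hydroxylase that blocks HIF coactivator binding, had a log2 ratio of 0.19, and Hif3a one of -0.14. For CTCF, KO was above WT at 9 of 14 and WT above KO at 0, near the 56.3% and 3.02% of all genes (list median 0.19, all genes 0.21), from 0.75 at Egln3 and 0.70 at Car9 to 0.17 at Ddit4 and 0.10 at Vegfa. For ETS1, WT was above KO at 2 of 14 and KO above WT at 0, beside 7.47% and 3.86% of all genes (list median -0.08, all genes 0.04). Egln3, a prolyl hydroxylase that is itself a HIF target, had 0.978 and 0.192 kb in KO against 2.54 and 2.36 kb in WT, rank 16463 of 16474 with a log2 ratio of -1.12. Ddit4, a stress-induced inhibitor of mTORC1 signalling, had 2.83 and 1.87 kb in KO against 3.29 and 2.86 kb in WT. After scaling, KO was above WT at 2 and WT above KO at 2 for H3K27ac, beside 20.8% and 31.4% of all genes. For CTCF the counts were 2 and 4, beside 24.8% and 21.9%, and Ddit4 and Vegfa were then at -0.11 and -0.19. Hif1an was at -0.01 for H3K27ac after scaling. For ETS1, WT was then above KO at 3 genes, Hif3a, Egln2 and Egln3, and KO above WT at 0, beside 10.7% and 8.25% of all genes. At Ddit4 the ETS1 libraries of the genotypes then overlapped.

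In the MYC network, KO was above WT for H3K27ac at 4 of 9 genes with a peak and WT above KO at 1, beside 54.0% and 6.37% of all genes, with a list median of 0.20 beside 0.18. Mxd1 and Mxd3, which encode MAX partners that oppose MYC, had log2 ratios of 0.46 and 0.41, and Mga, a MAX partner that represses, 0.30. Mxd4, of the same family, had -0.13. For CTCF, KO was above WT at all 11 genes of the list, beside 56.3% of all genes (list median 0.50, all genes 0.21), with Mycn at 0.88 and Mga at 0.78 the highest and Mlx at 0.40 and Mycl at 0.20 the lowest. For ETS1, WT was above KO at Mycl alone of 11, beside 7.47% of all genes (list median -0.12, all genes 0.04), with 0.454 and 0 kb in KO against 0.491 and 0.938 kb in WT. After scaling, KO was above WT at 1 and WT above KO at 4 for H3K27ac, beside 20.8% and 31.4% of all genes. For CTCF, KO was above WT at 10 of 11, beside 24.8% of all genes, with a list median of 0.26 beside 0.02 for all genes and Mycl at -0.07. For ETS1, WT was again above KO at Mycl alone, beside 10.7% of all genes.

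Genes with a pattern most like that of Hif1a over the 12 libraries, by the mean absolute difference in log2(covered kb + 1), were Nfx1, Il12rb2, Hspa4, Eprs and L3mbtl3, at 0.288 to 0.348. For H3K27ac, Il12rb2, an IL-12 receptor subunit of Th1 cells, had 19.4 and 13.9 kb in KO against 4.31 and 5.65 kb covered in WT, and Nfx1 had 11.3 and 16.4 kb in KO against 5.93 and 4.05 kb in WT. Genes most like Myc were Narf, Tedc1, Cenpt, Thap11 and Mfng, at 0.113 to 0.145, smaller differences than those of the genes nearest to Hif1a. Cenpt and Thap11 had the same H3K27ac lengths in WT, 3.51 and 3.74 kb, so they need not be separate loci. Narf covered 4.25 and 4.14 kb in KO against 3.69 and 3.27 kb in WT for H3K27ac.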

How the data were processed

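CUT&RUN peak lists of 14 libraries of mouse Th1 cells were analysed, in 8 groups by antibody and genotype taken from the sample titles. The submitters' processing notes name BWA and GRCm38. Versions, the peak caller's options and any use of a control were not stated. Each deposited list belongs to 1 library and has no header. Its layout, per the deposited values, gives a score, a fold ratio of enrichment, and −log10 p and −log10 q, which are the authors' own values for each peak. They served only to rank or filter peaks inside a list. The lists hold no counts, so depth is unknown, and a longer list can follow from deeper sequencing.

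Gene coordinates and promoters came from RefSeq tables of GRCm38.p6. Myc and Slc2a3 have no promoter entry, so both gene ends served as their starts. Covered length was the merged sequence under peaks within a gene and 10 kb flanks. The log2 ratio was KO mean over WT mean with 1 kb added to each. A gene was counted as separated where both libraries of a genotype were above both of the other. Overlaps of 1 bp or more merged peaks into regions. A percentile is the share of a list with a lower −log10 p. An exact two-sided permutation test over libraries had been planned for CTCF and ETS1. Its p-values are not reported, because WT has 1 biological replicate and the test would count its technical replicates as separate samples; even so its smallest p would be 0.333. The coverage code was tested on simulated peaks with known answers.

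The members and lists were chosen with earlier results of these data known. Named genes were the 10 members and, from each list and antibody, up to 2 separated genes with the highest and 2 with the lowest ratio, and the 5 genes most like Hif1a or Myc. The stretch past Ets1 was chosen after its values were seen. Alternatives were other flanks, a start window, equal list lengths, −log10 q of at least 5, scaling to library totals, other added lengths, other overlaps and leaving out each library, and, chosen after seeing the data, scaling for the pathway lists. Python 3.11.15, numpy 2.4.6, pandas 2.3.3, scipy 1.17.1 and matplotlib 3.10.9 were used.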

Additional observations from a re-analysis of the deposited data

Results flagged for a closer look

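IgG libraries, the negative controls, were used in no comparison. Of their 285 peaks in KO and 2 peaks in WT, a single one lay in the windows of the 10 genes. It was a KO peak of 188 bp in the body of Hk1, chr10 from 62327524 to 62327711, and it drew attention because WT IgG had no peak there. It lies inside regions where H3K27ac, CTCF and ETS1 were also called, so the peaks of all 3 antibodies at this site sit on a place where KO IgG was called too. Its part in the Hk1 values was not tested.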

How the results depend on the processing

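For Hif1a, the H3K27ac log2 ratio was above 0 under all 13 other settings, from 0.46 within 2 kb of the start to 2.57 with 0.1 kb added. Of the single-gene values under other settings, 104 H3K27ac, 97 CTCF and 114 ETS1 values moved by less than the spread between libraries, 22, 30 and 10 moved by more with no called value turning round, and 4, 3 and 6 turned round. The causes of the changes below were not tested. Counts of regions below have no share over all regions beside them. Nor do gene counts for the start window or with a library left out have a share over all genes. Nothing is read from those counts.

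Within 2 kb of the starts, WT was above KO for H3K27ac at 1 gene, the log2 ratio of sums was 0.23 for H3K27ac and 0.70 for CTCF, KO was above WT for ETS1 at 2 genes, and ETS1 at Slc2a1 was 0.0091. In gene bodies alone the CTCF ratio of sums was 0.72, with 1 KO-only CTCF region. With 50 kb flanks, shared regions numbered 48 for H3K27ac, 49 for CTCF and 18 for ETS1, with 2 WT-only ETS1 regions.

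With −log10 q of at least 5, far fewer peaks were left. For H3K27ac, KO was above WT at 3 genes and WT above KO at 0, beside 53.8% and 2.17% of all genes. The log2 ratio was 0 at Myc, Hk2, Pgk1 and Gapdh, so none of them could be counted in either direction. The count is thus not a share of all 10 genes. Slc2a3 turned to 1.58 and Hk1 to 0.12, and 3 KO-only, 0 WT-only and 4 shared regions were left. For CTCF the ratio of sums was 1.12, with 6 shared regions. For ETS1, 1 gene was separated in each direction, beside 4.90% KO above and 5.50% WT above, the ratio of sums turned to 0.27, Myc to 0.86, Slc2a1 to 0.40 and Ldha to 0.16, with 0 WT-only and 3 shared regions.

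With the same number of top-ranked peaks in every list, the CTCF ratio of sums was 0.31, Slc2a3 turned to -0.0687 for CTCF, and CTCF had 1 KO-only and 2 WT-only regions. For ETS1, KO was above WT at 3 genes and WT above KO at 4, beside 9.61% and 14.3% of all genes, Myc turned to 0.88, and 3 KO-only and 3 WT-only regions were found.

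Scaled to library totals, KO was above WT at 3 and WT above KO at 4 genes for H3K27ac, beside 20.8% and 31.4% of all genes. The ratio of sums was 0.0289, with Myc at -0.19 and Ldha at -0.0661. For CTCF the counts were 3 and 2, beside 24.8% and 21.9% of all genes. The CTCF ratio of sums was 0.13, Myc was -0.0899 and Slc2a3 -0.22. For ETS1, KO was above WT at 1 gene, beside 8.25% of all genes, and Ldha was 0.0184.

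Leaving out each library in turn, KO was above WT at 6 to 8 genes and WT above KO at 2 to 3 for H3K27ac, with ratios of sums from 0.36 to 0.48, 11 to 18 KO-only, 6 to 11 WT-only and 31 to 32 shared regions. The highest KO-only number, 18, was without KO 1, and the highest WT-only number, 11, without WT 1. For CTCF the ranges were 8 to 10 and 0 to 0 genes, 0.44 to 0.59, 7 to 9 KO-only, 0 to 2 WT-only and 29 to 32 shared regions. For ETS1 they were 0 to 3 and 3 to 7 genes, -0.79 to -0.03, 0 to 17 KO-only, 1 to 10 WT-only and 11 to 17 shared regions. The ETS1 region counts were highest without KO 2, with 17 KO-only regions, and without WT 1, with 10 WT-only regions, while the ratio of sums was -0.79 without KO 1 and -0.03 without WT 2. A region needs fewer libraries to be KO-only or WT-only once a library is left out.

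No paired analysis was possible because the WT replicate numbers mark technical replicates of 1 biological replicate.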
